A study of Mus musculus with 4 samples.

Results

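Genes by which tumour-associated macrophages are usually recognised were followed in mouse lung tissue carrying metastases of triple-negative breast cancer (TNBC). They are the 10 genes Adgre1, Csf1r, Cd68, C1qa, C1qb, C1qc, Apoe, Trem2, Spp1 and Arg1. They were chosen by name, with earlier results of these data known. All 10 were present once among the 56748 genes of the count table and all 10 had enough counts to be tested, as did 15167 genes in all. The lungs came from female BALB/cJ mice, young adults at injection, that had received 4T1-FLuc cells, a luciferase-marked mouse TNBC line, through the tail vein. One group was given saline (2 libraries). The other was given cmLumiOpto/PARPi (2 libraries), which joins cmLumiOpto, a gene package of a luciferase and a light-gated channel for the inner mitochondrial membrane that was carried by AAV in exosomes bearing an antibody to CD276, with ViviRen, the luciferase substrate, and with olaparib, a PARP inhibitor. A cfos promoter drove the package. Poly-A RNA was sequenced in bulk, with no macrophage sort. The sample labels call the material tumour cells and the control PBS, while the methods of the study describe metastasis-bearing lung tissue and saline, and the latter terms are used. The question these libraries address for macrophages is whether their genes differed between treated and control lungs.

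Macrophages enter a tumour as blood monocytes or descend from cells already resident in the lung, and the receptor encoded by Csf1r keeps them alive. Once in the tumour they engulf dead cells and debris, make the complement recognition molecule C1q and handle large amounts of lipid, for which the secreted apolipoprotein Apoe and the surface receptor Trem2 are known. Osteopontin, the product of Spp1, and arginase 1, the product of Arg1, mark macrophage states often found in metastases. Apoe, Spp1 and Arg1 are made by other cells too. In bulk tissue, fewer cells of a type and less RNA per cell cannot be told apart.

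Upstream sequences are shown for C1qb and C1qc, which varied together with C1qa, and for Cd68, Trem2 and Spp1, whose groups were separated. Both treated libraries were above both saline libraries for 27.4% of all genes tested too. For C1qa no upstream sequence was at hand. The sequences are from RefSeq on GRCm38.p6, each 5′ to 3′ on the strand of its gene. Each ends just before the start that RefSeq gives the gene. The C1qc stretch is shorter, since the bases nearest its RefSeq start lie in an exon of GENCODE M21. The gene positions given with the levels are those of GENCODE M21, whose starts differ from RefSeq's for C1qb, C1qc, Cd68 and Spp1. Capitals mark GAGGAA or, on the other strand, TTCCTC, letters that the macrophage transcription factor PU.1 can bind. The motif was searched after the windows had been read.
C1qb, chr4:136886201-136886450, minus strand: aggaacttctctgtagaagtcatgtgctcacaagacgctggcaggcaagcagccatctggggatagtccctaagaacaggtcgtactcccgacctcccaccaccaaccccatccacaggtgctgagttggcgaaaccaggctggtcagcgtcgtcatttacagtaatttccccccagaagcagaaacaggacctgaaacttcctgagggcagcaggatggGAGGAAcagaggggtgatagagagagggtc
C1qc, chr4:136893066-136893164, minus strand: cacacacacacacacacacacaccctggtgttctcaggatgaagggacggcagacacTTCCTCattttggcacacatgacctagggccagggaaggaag
Trem2, chr17:48346151-48346400, plus strand: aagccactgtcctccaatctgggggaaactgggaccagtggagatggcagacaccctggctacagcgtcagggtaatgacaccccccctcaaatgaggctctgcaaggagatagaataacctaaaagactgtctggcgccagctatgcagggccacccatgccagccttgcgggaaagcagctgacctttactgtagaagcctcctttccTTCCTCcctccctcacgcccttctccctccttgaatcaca
Cd68, chr11:69666171-69666420, minus strand: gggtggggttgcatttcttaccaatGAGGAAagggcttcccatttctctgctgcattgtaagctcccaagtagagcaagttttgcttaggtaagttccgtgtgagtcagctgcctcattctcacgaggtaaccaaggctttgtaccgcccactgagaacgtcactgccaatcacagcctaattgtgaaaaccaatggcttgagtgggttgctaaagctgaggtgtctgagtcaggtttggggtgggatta
Spp1, chr5:104434861-104435110, plus strand: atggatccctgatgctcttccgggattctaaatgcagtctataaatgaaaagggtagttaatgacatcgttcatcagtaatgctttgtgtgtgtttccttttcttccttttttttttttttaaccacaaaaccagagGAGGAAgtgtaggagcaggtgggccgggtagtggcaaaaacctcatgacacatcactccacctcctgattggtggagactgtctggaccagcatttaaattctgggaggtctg
The match lay 25 bases before the RefSeq start in C1qb, 35 in Trem2, 108 in Spp1, 188 in C1qc and 220 in Cd68. Before the GENCODE start it lay 38 bases in C1qb, 35 in Trem2, 115 in Spp1, 37 in C1qc and 237 in Cd68. RefSeq upstream sequence was at hand for 6 of the 10 genes, the sixth being Apoe, and each of the 6 windows held 1 match. Over 27025 genes, 23.1% of windows of 250 bases held one, and 9.85% held one in their first 99 bases, the part shown for C1qc. Since the windows had been read before the search, the 6 matches cannot be set against these shares. A match of letters is a description of the window and no evidence of binding.

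Depth was similar in the 4 libraries. The gene counts summed to 15263375 and 16086720 in saline and to 16509603 and 16755228 after cmLumiOpto/PARPi. Levels are given in CPM, the counts of a gene relative to the TMM-adjusted total of its library. A floor of 3 counts corresponded to 0.179 to 0.197 CPM, and the lowest count of any macrophage gene was 371. Such limits cover counting error only. Each comparison used edgeR's quasi-likelihood test over all 15167 genes, with p-values adjusted over all of them by the Benjamini-Hochberg method and 0.05 as the threshold. With 2 libraries against 2, no permutation of the libraries can give a two-sided p below 0.333, so separation of the groups alone is weak evidence. Each p-value sets the group difference against the spread between libraries of a group, which edgeR moderates over all genes.

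In edgeR's quasi-likelihood test 0 of the 10 genes passed the threshold, as did 0 of the 15167 genes (0%), of which 3221 had an unadjusted p under 0.05. With DESeq2 1011 genes passed, Trem2 alone among the members. Trem2 and Cd68 had an unadjusted p under 0.05 with a higher level after treatment (2 of 10), against 9.21% of all genes tested. A lower level with such a p was found for 0 of 10 members and for 12% of all genes. The treated libraries both exceeded the saline libraries for Cd68, Trem2 and Spp1 (3 of 10), a share close to the 27.4% of all genes. No member had both treated libraries below (27.8% of all genes), and 7 overlapped. The fitted level was higher after cmLumiOpto/PARPi for 8 members and lower for Csf1r and Arg1. The median log2 fold change of the members was 0.14, against 0.02 over all genes tested.

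**Figure D1:**
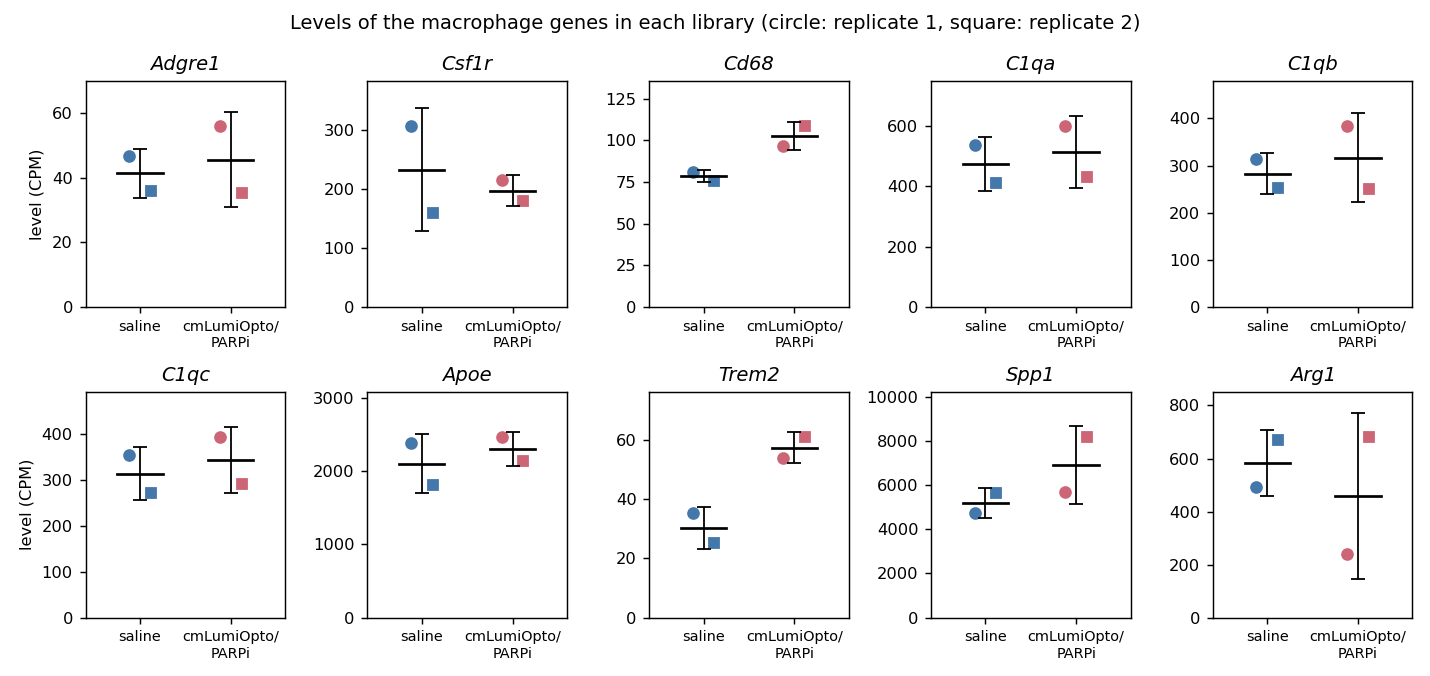
Level of each of the 10 macrophage genes (CPM, linear axes starting at 0) in the saline (blue) and cmLumiOpto/PARPi (red) libraries. Points are libraries, the bar is the mean and the whiskers are ± SD (n = 2). Groups are separated only for Cd68, Trem2 and Spp1, and the saline and treated points of the other 7 genes overlap.

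Among the identity genes, Adgre1 encodes F4/80, the surface protein used to stain mouse macrophages. It measured 46.6 and 36.0 CPM in saline and 55.8 and 35.3 CPM after treatment. The treated libraries held both the highest and the lowest value, so the groups overlapped. The means were 41.3 ± 7.51 and 45.6 ± 14.6 CPM (SD, n = 2), with a log2 fold change of 0.14 ± 0.26 (SE). The gene lies at chr17:57358691-57483527 (GRCm38).

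Csf1r, the receptor for CSF1 and IL-34, measured 306 and 159 CPM in saline and 216 and 179 CPM after cmLumiOpto/PARPi. Both treated values fell between the saline values, which differed 1.93-fold from each other. The log2 fold change was -0.24 ± 0.31 (quasi-likelihood test, adjusted p = 0.694). Without saline replicate 1 it became 0.30, so the sign of this difference rested on that library.

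Cd68 encodes a heavily glycosylated protein of macrophage lysosomes and endosomes (chr11:69664213-69666153). Its level was 81.0 and 75.8 CPM in saline and 96.5 and 109 CPM after treatment. The groups did not overlap, and replicates of a group lay within 1.12-fold of each other. The means were 78.4 ± 3.62 and 103 ± 8.53 CPM, a fitted fold of 1.31 and a log2 fold change of 0.39 ± 0.13. This did not pass the threshold (quasi-likelihood test, adjusted p = 0.197). With a correction for gene length the log2 fold change was 0.03.

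The 3 chains of C1q bind antibody complexes and dying cells and start the classical complement pathway. Their genes lie side by side on the minus strand of chromosome 4, C1qb at chr4:136880129-136886187, C1qc at chr4:136889804-136893065 and C1qa at chr4:136895917-136898803, spanning 18675 bases with gaps of 3616 and 2851 bases. C1qa measured 536 and 410 CPM in saline and 598 and 429 CPM after cmLumiOpto/PARPi. C1qb measured 313 and 251 CPM in saline and 383 and 250 CPM after treatment. For C1qc the levels were 355 and 273 CPM, then 394 and 293 CPM. In each gene replicate 1 was the higher library of its group, and the groups overlapped.

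The log2 fold changes of C1qa, C1qb and C1qc were 0.12 ± 0.23, 0.17 ± 0.24 and 0.13 ± 0.21, each smaller than its SE, with adjusted p from 0.724 to 0.789 in the quasi-likelihood test. The counts of the 3 chains kept nearly the same ratio in every library. C1qa counts over C1qc counts lay between 1.47 and 1.52 in the 4 libraries. C1qa over C1qb was 1.71 and 1.63 in saline and 1.56 and 1.72 after treatment. The chains thus varied together from library to library while their summed level, 1204 and 934 CPM in saline and 1376 and 972 CPM after treatment, followed the replicate number more than the treatment.

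The pattern of the C1q genes over the 4 libraries was compared with that of every gene outside the 10 with a mean of at least 10 CPM (10040 genes compared). The closest by root mean square distance of centred log2 CPM were Ak3 (0.0133), Slc25a45 (0.0167), Pmm1 (0.0171), Wnt10a (0.0191) and Cnst (0.0233). None of these is a macrophage marker, and 4 libraries leave many genes with a similar order. Among the members, Adgre1 (0.0545) and Apoe (0.109) were closest to the C1q pattern, Csf1r (0.268) and Cd68 (0.288) lay farther away, and Spp1 (0.448), Trem2 (0.474) and Arg1 (0.832) farthest.

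Apoe encodes apolipoprotein E, which carries cholesterol out of lipid-laden cells and is also a ligand of Trem2 (chr7:19696109-19699188). It measured 2385 and 1815 CPM in saline and 2465 and 2140 CPM after cmLumiOpto/PARPi. The groups overlapped, since saline replicate 1 exceeded treated replicate 2. Means were 2100 ± 403 and 2303 ± 230 CPM, and the log2 fold change was 0.13 ± 0.21 (quasi-likelihood test, adjusted p = 0.746).

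Trem2, the lipid-sensing receptor of tumour-associated macrophages, showed the largest fitted difference of the 10 genes (chr17:48346401-48354147). It had 563 and 371 counts in saline and 933 and 1013 counts after treatment, that is 35.3 and 25.3 CPM against 53.7 and 61.0 CPM. The lowest treated library stood well above the highest saline library. The means were 30.3 ± 7.09 and 57.3 ± 5.12 CPM (SD, n = 2), a fitted fold of 1.89 and a log2 fold change of 0.92 ± 0.20.

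In the quasi-likelihood test Trem2 had an adjusted p of 0.138, short of the threshold. Of all genes tested, 479 (3.16%) had a smaller unadjusted p and 8.11% a higher log2 fold change. The call depended on the test, since Trem2 passed with DESeq2 (adjusted p = 0.010), with edgeR's exact test (adjusted p = 0.018) and without the filter on low counts (adjusted p = 4.95e-04), where 6.67%, 5.37% and 7.86% of all genes tested passed. No other member passed in any of these. With 1 library left out at a time its log2 fold change was between 0.68 and 1.17.

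Spp1 was the most abundant of the 10 genes and took 0.468% to 0.823% of all counts of a library. Osteopontin, its product, is a secreted phosphoprotein that binds CD44 and integrins, and tumour epithelium makes it as well as macrophages. Its level was 4721 and 5655 CPM in saline and 5679 and 8174 CPM after cmLumiOpto/PARPi (chr5:104435118-104441050). The groups were just separated, with 5655 CPM in the highest saline library and 5679 CPM in the lowest treated one. Means were 5188 ± 660 and 6927 ± 1764 CPM, with a log2 fold change of 0.42 ± 0.26 (quasi-likelihood test, adjusted p = 0.388). It was 0.09 with a correction for gene length and 0.11 without treated replicate 2. A list of 6 epithelial markers, keratins among them, stood for the 4T1 epithelium, though it does not tell tumour from lung epithelium. Its summed level was 2554 and 2944 CPM in saline and 2248 and 3334 CPM after treatment. Replicate 2 was thus the higher library of each group for both Spp1 and this sum. The part of tumour epithelium in the Spp1 level was not tested.

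Arg1 encodes arginase 1, which breaks down arginine to ornithine and urea (chr10:24915221-24927484). It measured 494 and 670 CPM in saline and 239 and 681 CPM after treatment. Treated replicate 1 was the lowest and treated replicate 2 the highest library, 2.85-fold apart, the widest gap between replicates among the members. The log2 fold change of -0.34 ± 0.47 was smaller than its SE (quasi-likelihood test, adjusted p = 0.711). It was -1.31 without treated replicate 2 and 0.23 without treated replicate 1, so a single library decided the direction.

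**Figure D2:**
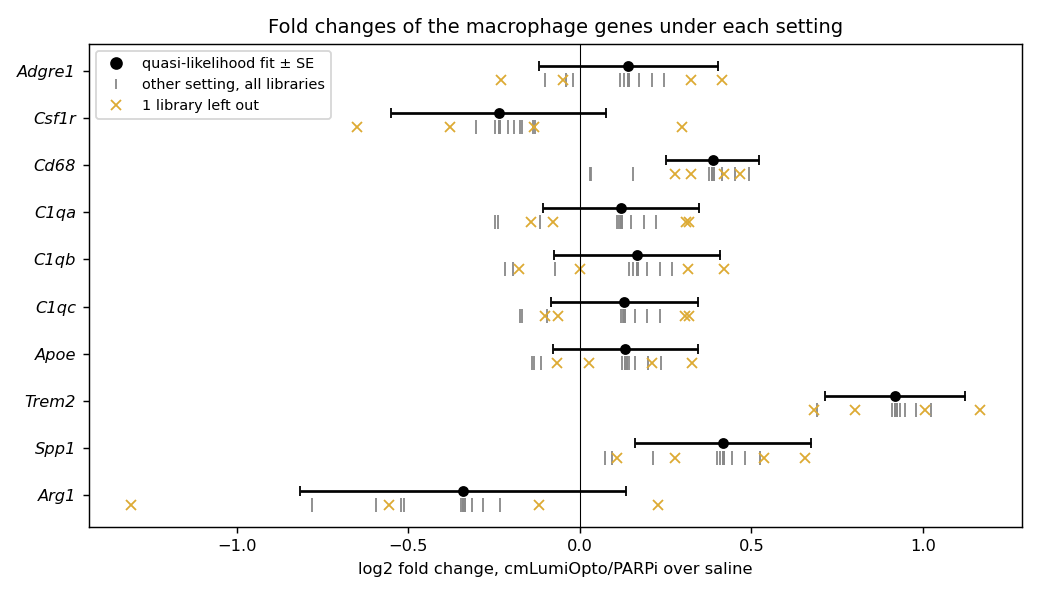
Log2 fold change of cmLumiOpto/PARPi over saline for the 10 genes. Black points and bars are the quasi-likelihood fit ± SE, grey ticks other settings with all libraries, and crosses fits with 1 library left out. Trem2 lies between 0.68 and 1.17 in every setting, Cd68 and Spp1 stay above 0, and the other 7 genes cross 0.

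The direction of small differences in these libraries followed gene length. With all genes split by length into 5 equal groups, the median log2 fold change went from 0.31 in the shortest group to -0.27 in the longest. Cd68, Spp1 and the C1q genes fall in the shortest group by their length in the table. With each library corrected for this trend by the lengths in the table, the log2 fold changes of Adgre1, C1qa, C1qb, C1qc and Apoe were -0.02, -0.24, -0.19, -0.17 and -0.14, below 0, and the median of the 10 was -0.15. Trem2 stayed at 0.92 by the length in the table, 4946 bases, which counts a transcript with a retained intron. By the lengths of coding transcripts, an alternative chosen after the data had been seen, it was 0.69.

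Levels were compared between genes per kilobase of length. Spp1 was highest in every library, at 2865 to 4960 CPM per kb of the length in the table, followed by Apoe at 849 to 1153 CPM per kb. C1qa came next, at 394 to 575 CPM per kb. Arg1 (107 to 306 CPM per kb), C1qb (230 to 352 CPM per kb) and C1qc (141 to 204 CPM per kb) changed places between libraries. Cd68 (60.3 to 86.4 CPM per kb) was above Csf1r (27.5 to 53.0 CPM per kb). Trem2 (5.11 to 12.3 CPM per kb) and Adgre1 (10.9 to 17.2 CPM per kb) were lowest. Their order turns on the length used, since per kb of its first coding transcript (1088 bases) Trem2 reached 23.2 to 56.0 CPM, above Adgre1 at 11.3 to 17.9 CPM in each library. By such lengths Csf1r (79.1 CPM per kb) was also above Cd68 (65.8 CPM per kb) in saline replicate 1. Arg1 was then above C1qa in saline replicate 2 (454 against 394 CPM per kb) and treated replicate 2 (461 against 413 CPM per kb).

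To set the functional genes against the identity genes of the same library, the mean log2 CPM of Adgre1, Csf1r and Cd68 was subtracted from each. Trem2 then stood at -1.57 and -1.58 in saline and at -0.97 and -0.53 after treatment, a difference of 0.82 with a pooled SD between replicates of 0.22. The C1q genes differed by 0.00 (C1qa), 0.03 (C1qb) and 0.01 (C1qc), and Apoe differed by 0.03 with a pooled SD of 0.045. Trem2 was thus higher against the identity genes in both treated libraries, while the values of C1q and Apoe overlapped between groups. For Spp1 the difference was 0.29 with an SD of 0.53 and for Arg1 -0.62 with an SD of 0.99, and the groups of both overlapped. These are descriptions with no test.

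**Figure D3:**
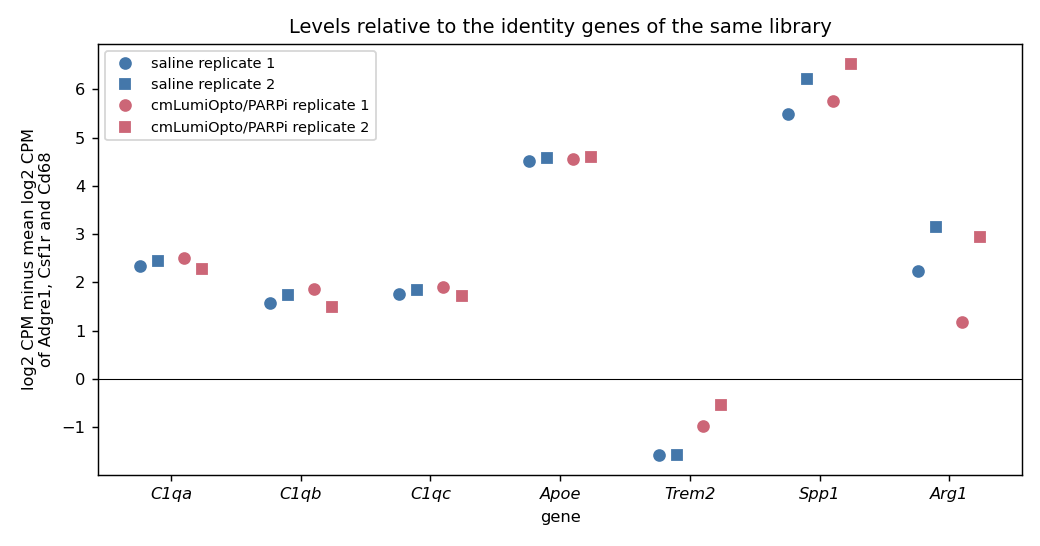
Level of 7 genes in each library relative to the mean log2 CPM of Adgre1, Csf1r and Cd68 (log2 units, not divided by length, so heights are to be compared within a gene). The treated points of Trem2 (-0.97 and -0.53) lie above its saline points (-1.57 and -1.58), while those of the C1q genes and Apoe overlap between groups.

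The choice of reference mattered. Against Ptprc, which encodes CD45 of all leukocytes and measured 70.1 and 48.4 CPM in saline and 116 and 64.1 CPM after treatment, the 3 C1q genes, Apoe, Adgre1 and Csf1r were lower in both treated libraries than in both saline libraries. The C1q genes differed by -0.45 (C1qa), -0.42 (C1qb) and -0.44 (C1qc) on the log2 scale. Trem2 differed by 0.37 against Ptprc, with a pooled SD of 0.52 and overlapping groups. The separation of Trem2 therefore held against macrophage genes and not against Ptprc. Trem2 counts over Adgre1 counts were 0.758 and 0.703 in saline and 0.962 and 1.73 after treatment.

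Trem2 signals through the adaptor Tyrobp. Tyrobp measured 73.3 and 61.3 CPM in saline and 105 and 95.4 CPM after cmLumiOpto/PARPi, with no overlap and a log2 fold change of 0.57 ± 0.15 (quasi-likelihood test, adjusted p = 0.145). Trem2 counts over Tyrobp counts were 0.482 and 0.413 in saline and 0.512 and 0.639 after treatment. Of 16 genes of TREM2 signaling and lysosomal lipid handling, 0 passed the threshold, 6 were higher with an unadjusted p under 0.05 and 0 lower (9.21% and 12% of all genes). The groups were separated, with the treated libraries higher, in 11 of the 16 (27.4% of all genes), and the median log2 fold change was 0.40, against 0.02 over all genes. This list and those below were drawn up with earlier results of these data known. Their counts and medians are descriptions, and those of this list are no independent support for Trem2. Of the 16, 5 passed and were higher with DESeq2, 4 with the exact test and 7 without the filter on low counts. Over all genes tested, 325 of 15167, 322 of 15167 and 934 of 25435 passed and were higher in these fits. Those that passed and were lower were 686, 493 and 1066. These are the counts to set beside the calls in each list below. The median stayed between 0.30 and 0.50 in every setting tried, the corrections for length and the fits with 1 library left out included. Tyrobp itself came to 0.19 with the length correction.

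Within this list the smallest p belonged to Gpnmb, a transmembrane glycoprotein of lipid-loaded macrophages. It measured 16.9 and 10.6 CPM in saline and 44.6 and 52.9 CPM after treatment, a log2 fold change of 1.82 ± 0.26 (quasi-likelihood test, adjusted p = 0.138). Both treated libraries were above the higher saline library. Fabp5, a fatty acid carrier, measured 53.0 and 38.0 CPM, then 73.4 and 86.9 CPM, a log2 fold change of 0.81 ± 0.20. Grn, which encodes the lysosomal protein progranulin, was the only gene of the list with a negative log2 fold change, -0.16 ± 0.17.

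**Figure D4:**
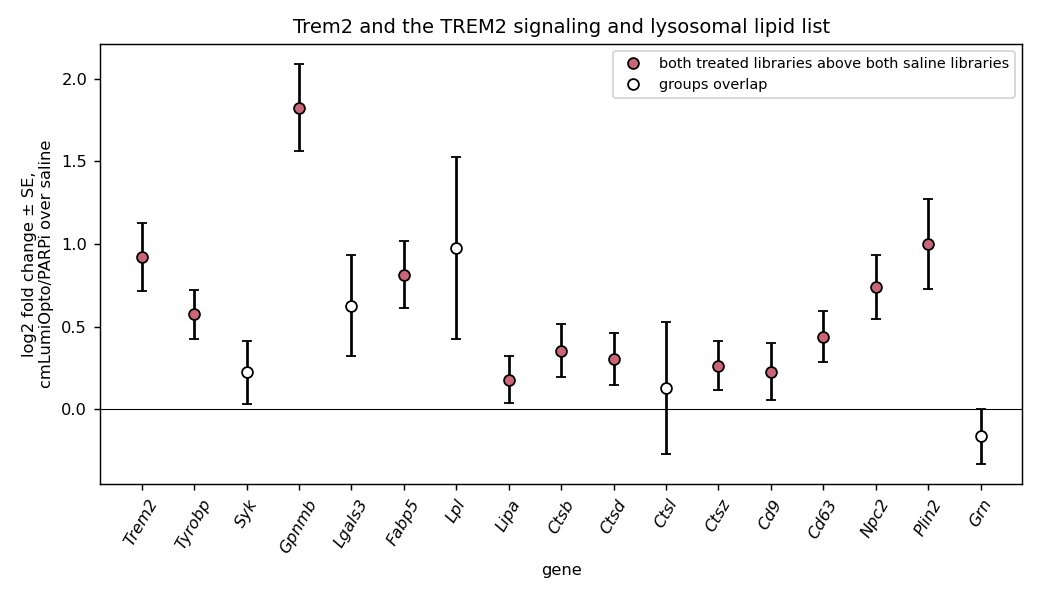
Log2 fold change ± SE (quasi-likelihood fit, 2 libraries a group) of Trem2 and of 16 genes of TREM2 signaling and lysosomal lipid handling. Filled points mark genes whose treated libraries both lie above both saline libraries (Trem2 and 11 others). Gpnmb is highest at 1.82, Grn lies at -0.16, and none passed the adjusted threshold. The list was drawn up with earlier results of these data known.

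Partners of Apoe in lipoprotein and cholesterol handling went both ways (9 of 10 genes tested, 2 higher and 2 lower with an unadjusted p under 0.05, against 9.21% and 12% of all genes, 0 past the threshold, median log2 fold change 0.13). The median was -0.26 without saline replicate 2 and 0.64 without saline replicate 1. With DESeq2 and with the exact test 2 passed and were lower, and without the filter on low counts 3 higher and 2 lower genes passed. Lrp1, an endocytic receptor for Apoe, measured 806 and 1045 CPM in saline and 337 and 470 CPM after treatment, a log2 fold change of -1.20 ± 0.23 (quasi-likelihood test, adjusted p = 0.138). Lrp1 passed with DESeq2 (adjusted p = 1.28e-04), with the exact test (adjusted p = 0.0019) and without the filter (adjusted p = 2.1e-07). Both treated libraries were below the lower saline library. Apoc1, an apolipoprotein encoded beside Apoe, was at 2.63 and 1.16 CPM in saline and 7.94 and 4.63 CPM after treatment. Nr1h3, the sterol-sensing nuclear receptor that drives Apoe in macrophages, was at 4.95 and 2.25 CPM, then 14.8 and 6.20 CPM.

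Complement genes other than C1q showed no common direction. Of 14 tested, 0 passed the threshold, 0 were higher and 2 lower with an unadjusted p under 0.05 (9.21% and 12% of all genes), and the median log2 fold change was 0.18. It turned to -0.03 with the length correction and to -0.61 without treated replicate 1, and was 0.45 without saline replicate 1. C4b alone passed with DESeq2 and with the exact test, and 1 higher and 2 lower genes without the filter. C4b, cleaved by the C1 complex, measured 329 and 332 CPM in saline and 187 and 83.3 CPM after treatment (log2 fold change -1.29 ± 0.37). Vsig4, a complement receptor of resident macrophages, was low throughout, at 1.44 and 3.68 CPM, then 0.288 and 0.662 CPM. Cfp, which encodes properdin, had a log2 fold change of 0.31 and Itgax, one chain of complement receptor 4, one of 1.06.

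Of 11 macrophage growth factors and transcription factors, 0 were higher and 2 lower with an unadjusted p under 0.05 (9.21% and 12% of all genes), 0 passed the threshold and the median log2 fold change was 0.08. The median was -0.11 without treated replicate 1, -0.08 without saline replicate 2 and 0.22 without saline replicate 1. With DESeq2, with the exact test and without the filter 0 passed. Csf2rb, a chain of the GM-CSF receptor, measured 118 and 103 CPM in saline and 76.2 and 88.7 CPM after treatment, a log2 fold change of -0.43 ± 0.15. Spi1, which encodes PU.1, measured 70.1 and 52.7 CPM in saline and 73.0 and 71.7 CPM after treatment, and Il34, a ligand of the Csf1r receptor, had a log2 fold change of 0.17 ± 0.19.

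The 15 phagocytic and Fc receptors had a median log2 fold change of 0.00, with 0 higher and 2 lower at an unadjusted p under 0.05 (9.21% and 12% of all genes) and 0 past the threshold. The median was -0.17 without treated replicate 1 and 0.10 without saline replicate 1. Stab1 alone passed with DESeq2 and with the exact test, and 3 higher and 2 lower genes without the filter. Stab1, a scavenger receptor, measured 168 and 179 CPM in saline and 114 and 114 CPM after treatment. Mertk, a receptor for dying cells, measured 23.4 and 25.1 CPM, then 16.6 and 15.7 CPM. In both the groups were separated. Cd36 and Gas6 had the smallest p among the higher genes, with log2 fold changes of 1.62 ± 0.76 and 0.97 ± 0.48 and overlapping groups.

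Among 9 receptors and receptor chains for osteopontin, 8 had a negative log2 fold change, 2 were lower with an unadjusted p under 0.05 (12% of all genes), 0 were higher and 0 passed the threshold (median -0.35). With DESeq2 2 lower genes passed, with the exact test 1, and without the filter 1 higher and 3 lower. Itga5 measured 181 and 191 CPM in saline and 99.6 and 112 CPM after treatment. Itgav measured 212 and 233 CPM, then 132 and 157 CPM. Both integrin chains were lower in each treated library. The median of the list stayed between -0.43 and -0.25 in every setting tried. Itga8 alone had a positive log2 fold change, 1.26 ± 0.57.

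Of 9 genes of arginine metabolism, 0 were higher and 2 lower with an unadjusted p under 0.05 (9.21% and 12% of all genes), 0 passed the threshold and the median log2 fold change was 0.04. It was -0.17 without saline replicate 2. Slc7a1 alone passed with DESeq2 and with the exact test, and 2 lower genes without the filter. The lower genes were the arginine importers Slc7a1, at 109 and 121 CPM in saline and 69.8 and 80.0 CPM after treatment, and Slc7a2, at 53.4 and 42.7 CPM, then 24.6 and 36.8 CPM. Arg2, the mitochondrial arginase, had a log2 fold change of 0.36 ± 0.23 and Srm, which encodes spermidine synthase, one of 0.21 ± 0.15.

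Genes of alternative macrophage activation split (12 tested, 5 higher and 2 lower with an unadjusted p under 0.05, against 9.21% and 12% of all genes, 0 past the threshold, median log2 fold change 0.11). The median was -0.02 without treated replicate 1 and 0.44 without treated replicate 2. With DESeq2 1 higher and 1 lower gene passed, with the exact test 2 and 1, and without the filter 3 and 3. Retnla, induced by IL-4, measured 10.4 and 0.477 CPM in saline and 103 and 71.5 CPM after treatment. Mgl2, a lectin of the same programme, measured 5.83 and 2.11 CPM, then 24.4 and 9.99 CPM. In the other direction, the mannose receptor gene Mrc1 measured 212 and 396 CPM in saline and 137 and 154 CPM after treatment, and the haemoglobin scavenger gene Cd163 measured 13.2 and 54.7 CPM, then 6.68 and 11.9 CPM. Of 11 genes of classical activation, 10 were tested, 1 was higher with an unadjusted p under 0.05 and 0 lower (9.21% and 12% of all genes), and 0 passed the threshold (median 0.66). The median was 0.33 without treated replicate 1 and 1.39 without saline replicate 1. With DESeq2 and with the exact test 0 passed, and 5 higher genes without the filter. Il1b measured 24.4 and 13.4 CPM, then 44.4 and 26.8 CPM, Cxcl10 had a log2 fold change of 1.59 ± 0.65 and Nos2 one of -0.58 ± 0.38.

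Markers of other lung cells were at different levels in the groups and in the libraries, though 0 of them passed the threshold. The summed level of 8 alveolar type 2 markers was 1757 and 525 CPM in saline and 8138 and 2946 CPM after treatment, mostly from Sftpc (1020 and 176 CPM, then 6153 and 2092 CPM). Of the 8, 6 had both treated libraries above (27.4% of all genes) and 2 both below (27.8%). All 6 fibroblast markers were lower in both treated libraries (27.8% of all genes), with sums of 3760 and 2572 CPM, then 1147 and 1268 CPM. Alveolar type 2 cells also express Npc2 and other lysosomal genes of the TREM2 list, and fibroblasts Lrp1, Itga5 and Itgav. The part of these cells in the results was not tested.

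Of the macrophage subsets, 11 of 12 alveolar macrophage markers were in the table, with sums of 209 and 575 CPM in saline and 216 and 244 CPM after treatment. Their defining genes Siglecf (0.341 to 2.07 CPM) and Marco (0.0576 to 1.87 CPM) were close to the floor, and Chil3 made up most of the sum in saline replicate 2 (423 CPM). Of the 9 tested, 6 had a positive log2 fold change and 3 a negative one (median 0.60). Both treated libraries were above in 3 of the 9 (27.4% of all genes). Among these were Car4 (7.59 and 7.29 CPM, then 28.7 and 13.4 CPM) and Ear2 (6.46 and 6.13 CPM, then 19.3 and 9.45 CPM). The 8 interstitial macrophage markers summed to 501 and 796 CPM, then 370 and 421 CPM. Both treated sums were below, carried by Mrc1 and by F13a1 (150 and 274 CPM, then 45.4 and 118 CPM), whereas 5 of the 8 had a positive log2 fold change (median 0.46), among them Lyve1 (28.0 and 25.6 CPM, then 48.2 and 34.7 CPM) and Ms4a7 (1.55 ± 0.72). The 8 monocyte markers summed to 577 and 563 CPM, then 479 and 599 CPM. The sums of 10 neutrophil markers (1384 and 623 CPM, then 840 and 1692 CPM), 6 dendritic cell markers (23.9 and 15.3 CPM, then 45.4 and 19.4 CPM), 6 T cell markers (40.8 and 15.5 CPM, then 81.1 and 22.6 CPM), 6 endothelial markers (476 and 372 CPM, then 689 and 369 CPM) and 4 markers of all leukocytes (598 and 358 CPM, then 667 and 536 CPM) overlapped between groups. Log2 fold changes were positive in 8 of 10 neutrophil (median 0.40), 4 of 5 tested dendritic cell (1.75) and 6 of 6 T cell markers (0.72). They were also positive in 5 of 6 endothelial (0.56), 3 of 4 leukocyte (0.67) and 4 of 7 tested monocyte markers (0.47). The median over all genes tested was 0.02. No marker in the table was at 0 in every library.

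**Figure D5:**
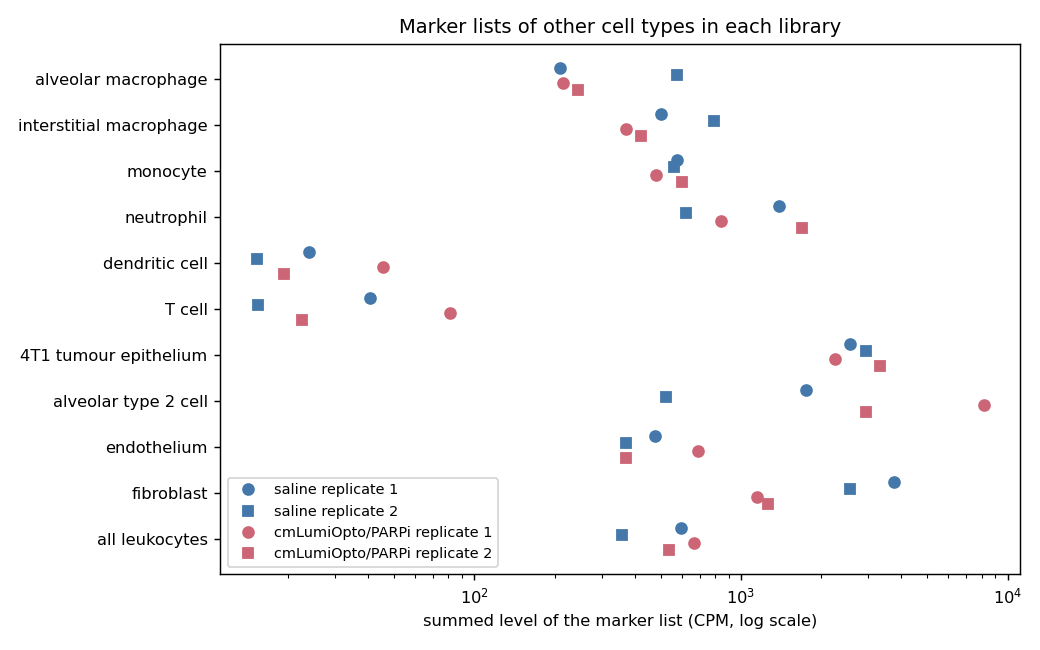
Summed level of each marker list (CPM, log axis) in each saline (blue) and cmLumiOpto/PARPi (red) library, circles for replicate 1 and squares for replicate 2. The sums of the fibroblast and interstitial macrophage lists (treated below) and of the alveolar type 2 list (treated above) separate the groups. The interstitial sum follows Mrc1 and F13a1, while 5 of its 8 genes had a positive log2 fold change.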

How the data were processed

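Bulk RNA sequencing was done on 4 libraries, 2 saline and 2 cmLumiOpto/PARPi, each from separate lung tissue. The authors mapped poly-A reads with HISAT2 and deposited raw read counts per gene, not normalized. The deposited table also gives each gene's length in bases. The build is GRCm38 in the methods and mm39 in the submitters' processing notes, and the positions in the table were not those of GRCm38, so coordinates are taken from GENCODE M21 and RefSeq by identifier. The counting tool and its strand setting are not given in the sources used here. Totals were 15263375 to 16755228 counts. The counts of 2 replicates differed beyond sampling error (chi-square per degree of freedom 26.1 in saline, 44.9 after treatment).

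Counts were tested in R 4.3.3 with edgeR 4.0.16 (TMM, filterByExpr at a minimum count of 10, then glmQLFit with glmQLFTest, two-sided, Benjamini-Hochberg over 15167 genes, threshold 0.05). The SE is the log2 fold change divided by the square root of F. Log2 CPM used a prior count of 2. Alternatives were DESeq2 1.42.0, edgeR's exact test, other scalings and filters, a replicate block, a loess offset on log2 gene length (span 0.5) and leaving out each library. Counts were simulated for the same comparison and 15167 genes, 200 of them shifted by 2 on the log2 scale. The libraries were drawn independently of each other. The quasi-likelihood test recovered 73% of the shifted genes, DESeq2 78% and the exact test 79%, with 10.4%, 18.8% and 21.8% of calls false. The shift exceeds the largest log2 fold change of a member, 0.92 for Trem2. Recovery of changes of the members' size was therefore not measured.

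The members and all lists were chosen with earlier results of these data known. All 10 members are named. Of each related list, up to 2 tested genes in each direction with the smallest unadjusted p are named, except 2 genes that are not reported here, with defining markers where a list moves with a result and the 5 genes nearest to the C1q pattern. Tyrobp and Ptprc, the adaptor and the alternative reference, are named besides.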

Additional observations from a re-analysis of the deposited data

How the results depend on the processing

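The fold changes of Trem2 (0.68 to 1.17), Cd68 (0.03 to 0.49) and Spp1 (0.07 to 0.66) kept their sign in all 16 alternatives. No gene passed in the reported test or with DESeq2 size factors, library size only, upper quartile scaling, a minimum count of 50, the legacy option off or the length offset. The genes passing were 2000 without the filter on low counts, 1011 with DESeq2, 815 with the exact test, 1822 (12% of those tested) with the replicate block, 1234 (8.14%) with the block and length offset, and 0 to 31 with 1 library left out (31 without saline replicate 1, 9 without saline replicate 2, 2 without treated replicate 1). Members passing were 1, Trem2, in the first 5 of these and 0 in the leave-one-out fits. The cause was not tested. With the length offset the medians of 6 related lists were below 0 (osteopontin receptors -0.31, growth and transcription factors -0.14, complement -0.03, phagocytic receptors -0.24, arginine metabolism -0.10, alternative activation -0.12). Trem2's adjusted p ranged from 4.95e-04 to 0.427 over the alternatives. Upper quartile scaling moved the median of all genes from 0.02 to 0.13 and library size only to 0.09, and no member changed sign.

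Same-numbered libraries come from different mice and share only a number, though across 15167 genes their deviations from the group means correlated (Spearman's rho 0.30, Pearson's r 0.36). With the replicate block, Trem2 had an adjusted p of 0.027 in the quasi-likelihood test, and of 0.028 with the length offset too. In the simulated counts 21.8% of the calls were false with the block, as with the exact test. Those libraries were drawn independently, without the correlation seen here. The simulation therefore cannot give the share of false calls with the block in these libraries.

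The members' median log2 fold change was 0.14, and -0.15 with the length offset, -0.13 with that offset and the block, -0.10 with coding transcript lengths, and -0.057 to 0.32 with 1 library left out. The length offset, the same with the block, and coding transcript lengths reversed Adgre1 (-0.019, -0.040, -0.10), C1qa (-0.24, -0.25, -0.12), C1qb (-0.19, -0.22, -0.071), C1qc (-0.17, -0.17, -0.10) and Apoe (-0.14, -0.13, -0.11). With 1 library left out, Adgre1 ranged from -0.23 to 0.41, Csf1r from -0.65 to 0.30, C1qa from -0.14 to 0.32, C1qb from -0.18 to 0.42, C1qc from -0.10 to 0.32, Apoe from -0.067 to 0.33 and Arg1 from -1.31 to 0.23. The sign turned without treated replicate 1 or saline replicate 2 for Adgre1, C1qa and C1qc, without saline replicate 2 for Apoe, without treated replicate 1 for C1qb and Arg1, and without saline replicate 1 for Csf1r. Where an arm kept 1 library, it was assumed to vary like the other group. For the 7 functional genes the median difference between treated and saline log2 levels was 0.03 relative to the identity genes and -0.42 relative to Ptprc. The lowest count of a member was 371, so counting error was small beside the spread between libraries.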
